A study of Homo sapiens with 9 samples.

Results

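The effects of the 2 single-herb injections on gene expression were set against each other directly. Kushen injection and Baituling injection are the separate extracts of the herbs that are combined in Compound Kushen Injection (CKI). The comparison uses 6 of the 9 libraries of the series, the 3 labelled Kushen injection and the 3 labelled Baituling injection, and these were chosen by their labels alone. The cells were MDA-MB-231, a human line established from breast adenocarcinoma that lacks the estrogen receptor. It was grown in DMEM with serum and exposed to an injection for 48 h. Per the labels CKI was used at 2 mg/mL and each single injection at the same ratio, and per the methods of the study both were made by the same process as CKI and diluted to the concentration equivalent to its total alkaloids. The remaining 3 libraries, treated with CKI, entered the filter on low counts, the scaling between libraries and the estimate of the spread, but not the comparison itself. Untreated cells were not analysed here, so a gene that was higher in Kushen may equally be described as lower in Baituling, and all directions below are those of Kushen relative to Baituling. Nothing says that the 3 libraries of a group came from separate cultures, so p-values measure the spread between these libraries, which may be technical.

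Several of the pathways described here are well known. The aryl hydrocarbon receptor is a ligand-activated transcription factor that induces cytochrome P450 enzymes of family 1 by binding xenobiotic response elements. NRF2 is held in the cytoplasm by KEAP1 for degradation, escapes when reactive compounds modify KEAP1, and with a small MAF partner induces genes for glutathione, thioredoxin and detoxification enzymes from antioxidant response elements. NF-kB drives chemokine and cytokine genes in response to IL-1, TNF or cell stress, and MDA-MB-231 cells are known for high activity of this pathway. Late cell cycle genes are repressed in quiescent cells through the cell cycle homology region (CHR) near their start sites and are activated from it and from CCAAT boxes in dividing cells. In whole-culture RNA, fewer cells of a type (such as cells in mitosis) and less RNA per cell cannot be told apart.

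The short sequences that these factors are known to recognise are shown for genes on which the comparison turns and whose promoter held a match. They are the first matches found by moving upstream from the start site within 250 bases, taken from RefSeq promoters on GRCh38.p14, in the direction of the gene and with the match in capitals. For the genes that were higher in Kushen these are a xenobiotic response element core (GCGTG) in CYP1A1 and antioxidant response element cores (TGACNNNGC, on the opposite strand in GCLM) in the glutathione gene GCLM and the thioredoxin reductase gene TXNRD1. No such core was found in the promoters of NQO1, SRXN1 and OSGIN1.
CYP1A1, chr15:74725551-74725615, minus strand: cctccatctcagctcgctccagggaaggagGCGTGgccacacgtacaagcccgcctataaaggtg
GCLM, chr1:93909431-93909494, minus strand: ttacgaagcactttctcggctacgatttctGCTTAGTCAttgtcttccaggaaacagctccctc
TXNRD1, chr12:104215650-104215718, plus strand: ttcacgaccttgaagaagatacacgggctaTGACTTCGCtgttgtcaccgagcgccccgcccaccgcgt
For genes that were lower in Kushen they are NF-kB sites (GGNNTTTCC) of chemokine, interleukin and adhesion genes, which start 53 bases before the start site in both CXCL1 and CXCL2 and 91 bases before it in CXCL8. None was found in the promoter of CSF2.
CXCL1, chr4:73869310-73869378, plus strand: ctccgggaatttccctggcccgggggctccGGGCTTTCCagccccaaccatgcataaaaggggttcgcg
CXCL2, chr4:74099210-74099278, minus strand: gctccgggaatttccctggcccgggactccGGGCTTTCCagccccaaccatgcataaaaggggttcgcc
CXCL8, chr4:73740448-73740516, plus strand: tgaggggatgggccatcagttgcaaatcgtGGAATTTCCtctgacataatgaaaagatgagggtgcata
IL6, chr7:22727098-22727166, plus strand: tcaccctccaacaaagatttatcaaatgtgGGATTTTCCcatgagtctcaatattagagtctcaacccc
VCAM1, chr1:100719650-100719718, plus strand: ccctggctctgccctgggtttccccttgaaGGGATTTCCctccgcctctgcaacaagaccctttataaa
They are also CHR elements (TTTGAA or TTTAAA) of mitotic genes, which lie 29 bases before the start site in PLK1 and 30 bases before it in CCNB1.
PLK1, chr16:23678830-23678888, plus strand: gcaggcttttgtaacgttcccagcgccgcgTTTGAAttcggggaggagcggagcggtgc
CCNB1, chr5:69167090-69167149, plus strand: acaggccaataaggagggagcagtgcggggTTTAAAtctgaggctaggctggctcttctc
KIF20A, chr5:138179041-138179106, plus strand: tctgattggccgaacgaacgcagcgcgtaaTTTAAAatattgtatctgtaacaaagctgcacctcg
CDC20, chr1:43358886-43358951, plus strand: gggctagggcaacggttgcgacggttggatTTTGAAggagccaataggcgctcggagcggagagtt

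Read over both strands, such matches were spread unevenly between the gene lists. A CHR in either form was present in 58.6% of 58 promoters of the mitosis list, 22.4% of 729 promoters of all genes called lower in Kushen, 14.5% of 874 promoters of genes called higher, 14.2% of 11377 promoters of all genes tested and 22.1% of the 27305 promoters in the RefSeq table. None of 41 promoters of the DNA replication list held one, whereas a CCAAT box was found in 61.0% of these and in 69.0% of the mitosis promoters, against 34.7% of all genes tested and 33.0% of the RefSeq table. NF-kB sites were present in 5 of 8 chemokine promoters (62.5%) and in 38.9% of 18 promoters of the NF-kB list, against 5.84% of all genes tested and 5.48% of the table. An antioxidant response element core was found in 22.2% of 36 promoters of the NRF2 list, 12.1% of all genes tested and 3013 of the 27305 promoters in the table. The short core GCGTG was present in 44.8% of all genes tested and 31.9% of the table, so this core is common in promoters. A match is a description of the sequence and does not show that a factor was bound.

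Library totals were 22023427 to 23782071 reads in Kushen and 20144628 to 23367960 in Baituling. Markers of MDA-MB-231 fixed for the check (VIM, CD44, AXL, CAV1, EGFR, ETS1, FOSL1 and PLAUR) were all present, at 0.323% to 0.330% of all reads in Kushen and 0.504% to 0.508% in Baituling. Of 7 luminal breast markers 5 passed the filter on low counts, with 1 called higher and 2 lower. Among them were GATA3 (called lower), ERBB2, EPCAM and FOXA1, the last with 15, 14 and 6 reads in Kushen and 0, 2 and 4 in Baituling. The estrogen and progesterone receptor genes ESR1 and PGR did not pass it. Of 6 leukocyte markers 2 passed it, CD14 and ITGAX (called higher), and PTPRC, CD3E and CD68 did not. The 6 leukocyte markers together took 5.85 to 7.82 CPM in Kushen and 8.64 to 10.9 CPM in Baituling, where CPM are counts scaled to library size. The 4 endothelial markers took 15.4 CPM in each Kushen library and 8.99 to 9.98 CPM in Baituling, nearly all on KDR, and the 5 fibroblast markers took 10.9 to 12.7 CPM and 5.06 to 5.73 CPM, mostly on PDGFRB, with CDH5 and DCN at or near 0. The fibroblast marker LUM had 86, 98 and 61 reads in Kushen and 9, 5 and 6 in Baituling. The part of these in the results was not tested. Replicates lay close together. The root mean square difference in log2 expression over all genes tested was 0.273 to 0.290 between Kushen libraries, 0.303 to 0.325 between Baituling libraries and 0.767 to 0.832 between a Kushen and a Baituling library. Between a Kushen and a CKI library it was 0.399 to 0.418.

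Genes counted as called were those with an adjusted p below 0.05 in edgeR's quasi-likelihood test and a log2 fold change beyond 1 either way. By this rule 15.2% of the 14195 genes tested were called (2162), 8.50% higher in Kushen (1207) and 6.73% lower (955). The threshold on the fold change set this number, since 71.6% of the genes tested had an adjusted p under 0.05 (10168), of which 5047 were higher and 5121 lower in Kushen. The libraries of the 2 groups did not overlap in 73.1% of genes. Of the 1942 tested genes on the pathway and family lists 331 were called (106 higher, 225 lower), so that most called genes are on no list. Differences were of moderate size: the median log2 fold change over all genes was 0.02, the interquartile range was -0.39 to 0.43, and the span from the 5th to the 95th percentile was -1.15 to 1.39. Larger differences were more often rises. Beyond a log2 fold change of 2 there were 315 genes higher and 141 lower, and beyond 4 there were 18 and 6. The balance depended on scaling and on rare transcripts, however: library totals in place of TMM raised the median of all genes to 0.23 and gave 1813 higher and 618 lower (74.6% higher), upper quartile scaling gave 63.0% higher, and with 10 reads required in every Kushen and Baituling library 669 were higher and 756 lower (47.0% higher). Of the genes named below, ATP5F1D, BBC3, DUSP1, FBL, IL1A, JUN, KRT8, MRPL23, NFKB1, NRG1, PSMB8, RAD51AP1, RAD51D, RPL3, RPSA, SHMT2, SOCS2, TNFAIP3, TNFRSF11B and UTP20 are called lower on the TMM scale but lay between -0.98 (TNFRSF11B) and -0.79 (IL1A) under library totals, and MAFG, NQO1, PRDX1, SLC2A3, TFRC and WIPI1 were past the fold threshold under them, at 1.08 (PRDX1) to 1.17 (NQO1). Below, levels are in TMM-scaled CPM, group means are given ± SD over 3 libraries, and differences are log2 fold changes ± SE. Counts of called list members are to be read against the shares over all genes tested, 8.50% higher and 6.73% lower.

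The balance of the 2 directions varied with level and gene type, as the plot of calls shows. When genes were ranked by their mean level and split into 5 bins of 2839 genes, 815 of the lowest bin were called higher and 255 lower. The lowest bin thus held the most calls in both directions. From the third bin on the order was turned, with 80 called higher and 174 lower there and 36 and 171 in the highest. The median log2 fold change went from 0.49 in the lowest to -0.16 in the highest bin. Of the called genes higher in Kushen, 522 had a mean of under 10 reads in the Baituling libraries. Of those lower in Kushen, 104 had a mean of under 10 reads in the Kushen libraries. Of 775 lncRNA genes tested, 30.2% were called higher and 5.68% lower in Kushen, against 7.02% and 6.81% of 13157 protein-coding genes. Level and gene type went together. In the lowest bin 206 of 564 lncRNA genes and 567 of 2112 protein-coding genes were called higher, while above it the numbers were 28 of 211 lncRNA and 356 of 11045 protein-coding genes. A read was present for 1442 to 1520 lncRNA genes per Kushen library and 1237 to 1250 per Baituling library. Of the 278 called lncRNA genes 214 overlap a gene on the opposite strand, and since the libraries were unstranded their reads cannot be told apart from those of that gene. Such an overlap was also common among genes of all types, in 8707 of the 14195 tested and 1293 of the 2162 called. The share among all lncRNA genes tested was not taken.

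**Figure D1:**
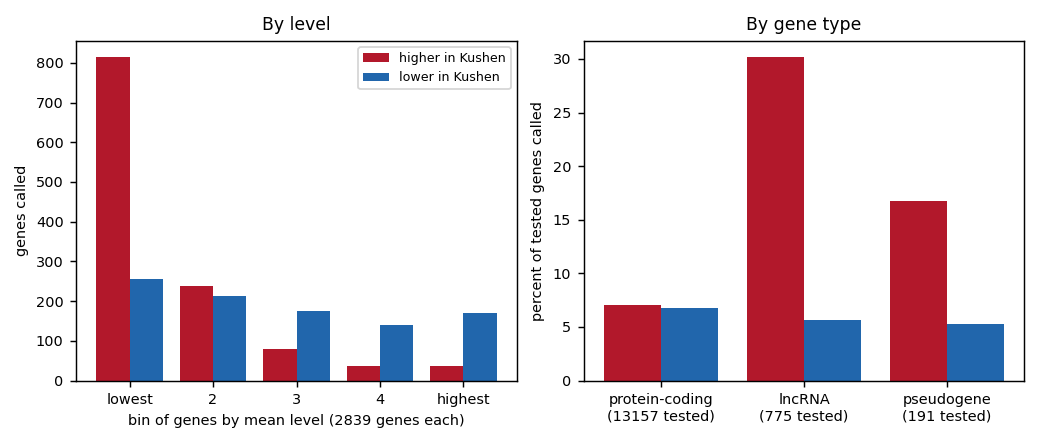
Genes called higher (red) or lower (blue) in Kushen against Baituling, as numbers in each of 5 bins of genes by mean level (left) and as percent of the genes tested by gene type (right). In the lowest bin 815 genes were called higher and 255 lower, in the highest 36 and 171; 30.2% of lncRNA genes and 7.02% of protein-coding genes were called higher.

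The largest rises and falls were taken from called genes with a mean of at least 2 CPM (log2 CPM of 1). Their groups were required not to overlap, so the separation of these genes was fixed by the choice. The 12 largest rises in Kushen included 3 enzymes that act on foreign or carbonyl compounds or are known NRF2 targets. CYP1A1 (chromosome 15, 75011883 to 75017877, build GRCh37), a cytochrome P450 induced through the aryl hydrocarbon receptor, was at 62.1, 59.0 and 56.6 CPM in Kushen and 2.39, 2.36 and 2.48 CPM in Baituling. Every Kushen library exceeded every Baituling library, and the log2 fold change was 4.62 ± 0.08 (SE, adjusted p 9.52e-19 in edgeR). The aldo-keto reductase AKR1B10 rested on few reads in Baituling, with 264, 255 and 192 reads in Kushen and 11, 12 and 5 in Baituling, and its log2 fold change was 4.31 ± 0.20. AKR1C1 (log2 fold change 3.02 ± 0.13) belongs to the same superfamily and has near-identical neighbours. NEAT1, the noncoding scaffold of nuclear paraspeckles, was at 1311, 682 and 1039 CPM in Kushen and 56.5, 73.2 and 74.7 CPM in Baituling. The Kushen libraries spread widely, but none came near the Baituling range. The other rises were those of the monocarboxylate transporter SLC16A12 (3.50 ± 0.21), the lncRNA LUCAT1 (3.30 ± 0.15), the WNT antagonist DACT3 (3.27 ± 0.24), the homeobox gene PKNOX2 (3.25 ± 0.21), the phosphate carrier SLC34A3 (3.24 ± 0.41), the lipoprotein lipase inhibitor ANGPTL4 (3.18 ± 0.09), the membrane-bound transcription factor CREB3L3 (2.94 ± 0.17) and CDS1 (2.91 ± 0.13), which makes CDP-diacylglycerol. SLC34A3 was the least certain, with 185, 96 and 188 reads in Kushen and 6, 17 and 16 in Baituling.

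The 12 largest falls, taken by the same rule, included the early response genes FOSB and FOS and several genes for secreted proteins. FOSB (chromosome 19, 45971253 to 45978437), an AP-1 subunit, was at 1.21, 1.35 and 1.86 CPM in Kushen and 33.8, 36.9 and 45.5 CPM in Baituling, a log2 fold change of -4.72 ± 0.16. IGFBP1 (chromosome 7, 45927959 to 45933259), a secreted binding protein for insulin-like growth factors, was at 5.15, 4.68 and 3.28 CPM in Kushen and 81.6, 76.6 and 74.6 CPM in Baituling (log2 fold change -4.14 ± 0.10, adjusted p 1.73e-17 in edgeR). HAS2 (chromosome 8, 122624356 to 122653680), which makes hyaluronan, was at 3.66, 3.53 and 3.64 CPM in Kushen and 65.7, 59.5 and 61.0 CPM in Baituling. In these genes the highest Kushen library lay far below the lowest Baituling library. The others were the chitinase-like CHI3L2 (-3.90 ± 0.13), the serine protease PRSS22 (-3.81 ± 0.10), the AP-1 subunit FOS (-3.80 ± 0.11), PDZK1IP1 (-3.65 ± 0.14), the iron-siderophore carrier LCN2 (-3.48 ± 0.16), the microRNA host gene MIR137HG (-3.43 ± 0.15), the organic anion carrier SLCO4A1 (-3.37 ± 0.06), LGALS12 (-3.14 ± 0.08), a galectin, and the small nucleolar RNA SNORD3B-2 (-3.28 ± 0.29), which has near-identical copies. SLCO4A1 overlaps an antisense gene, as FOSB, HAS2, CHI3L2, PRSS22, SLC16A12, LUCAT1, DACT3 and PKNOX2 do. Only 4 called genes had no read in any library of a group, and they are named here after their values were seen. FGF9, ADORA2A-AS1 and LINC01564 had 6 to 19 reads per Kushen library and none in Baituling, and PLA2G5, a secreted phospholipase, had 25, 12 and 20 reads in Baituling and none in Kushen. LINC01564 overlaps GCLC on the opposite strand, which had 1498 to 1660 reads in Kushen and 462 to 482 in Baituling. Without strand the reads of LINC01564 cannot be told apart from those of GCLC.

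**Figure D2:**
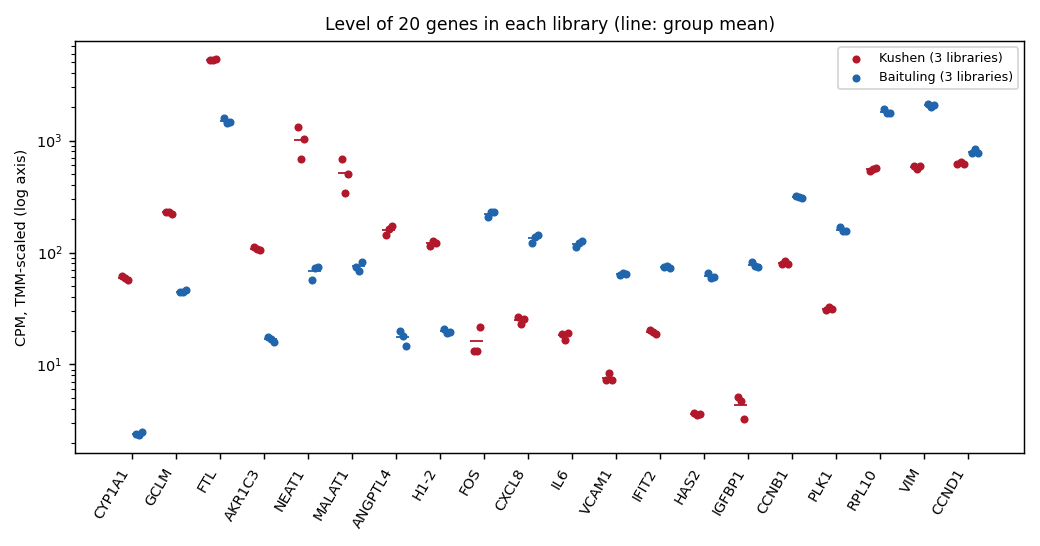
Level of 20 genes in each of the 3 Kushen (red) and 3 Baituling (blue) libraries, in TMM-scaled CPM on a log axis, with short lines at the group means. The 6 libraries of each gene fall into 2 groups without overlap, as in CYP1A1 (mean 59.2 against 2.41 CPM) and FOS (16.1 against 223 CPM), and the groups lie closest in CCND1 (629.8 against 797 CPM).

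Genes of mitosis fell together. All 66 members tested had an adjusted p under 0.05 and were lower in Kushen, where 36.1% of all genes tested were lower by that criterion, and 43 of them were called, with a median log2 fold change of -1.26. By role, 10 of 16 kinases and cyclins (median -1.32), 23 of 36 spindle and kinetochore genes (-1.20) and 10 of 14 genes of anaphase and chromosome condensation (-1.27) were called lower, and none higher. PLK1, the kinase of mitotic entry, was at 30.4, 32.7 and 31.2 CPM in Kushen and 169, 155 and 155 CPM in Baituling (log2 fold change -2.35 ± 0.05, adjusted p 9.28e-18 in edgeR). CCNB1, the cyclin that drives CDK1 into mitosis, was at 79.5, 83.6 and 79.4 CPM in Kushen and 323, 316 and 309.9 CPM in Baituling (-1.97 ± 0.04). UBE2C, the ubiquitin-conjugating enzyme of the anaphase-promoting complex, averaged 64.1 ± 1.45 CPM in Kushen and 325 ± 18.3 CPM in Baituling (SD, n = 3), and its activator CDC20 averaged 84.3 ± 7.07 CPM in Kushen and 343 ± 16.3 CPM in Baituling. In each of these genes every Kushen library lay below every Baituling library. KIF20A, a cytokinesis kinesin (-2.33), AURKB of the chromosomal passenger complex (-2.09), its partner BIRC5 (-2.01), the kinetochore protein SPC25 (-2.05) and separase ESPL1 (-1.65) completed the leading members. Over the 66 genes 0.345% to 0.360% of all reads fell on the list in Kushen and 0.722% to 0.744% in Baituling.

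DNA synthesis genes were also lower, by less. In the DNA replication list 11 of 48 members were called lower and none higher (median -0.62), 5 of 16 licensing genes (median -0.48) and 6 of 32 fork genes (-0.63), and 40 of the 48 were lower at an adjusted p under 0.05. The helicase subunit MCM7 was at 132, 139 and 146 CPM in Kushen and 453, 420.2 and 417 CPM in Baituling (-1.63 ± 0.05). CDT1, which loads the helicase at origins, averaged 22.7 ± 3.05 CPM in Kushen and 64.1 ± 2.91 CPM in Baituling and was called lower. MCM5 (-1.34), the DNA ligase LIG1 (-1.28), GINS2 (-1.24) and RNASEH2A (-1.23) were called lower. Of 18 enzymes of nucleotide synthesis 5 were called lower (median -0.68), among them the ribonucleotide reductase subunit RRM2 at 51.8 ± 2.63 CPM in Kushen and 170.1 ± 4.71 CPM in Baituling, thymidylate synthase TYMS (-1.69) and thymidine kinase TK1 (-1.27). Homologous recombination and crosslink repair genes shifted less, with 2 of 37 called lower (RAD51AP1 at -1.18 and RAD51D at -1.17), 26 lower at an adjusted p under 0.05 and a median of -0.35.

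Around the G1 phase several transcription factors were called, and none of the cyclins. Of 17 RB and E2F genes 4 were called lower, with MYBL2 at 38.1 ± 1.17 CPM in Kushen and 139 ± 5.69 CPM in Baituling (-1.87 ± 0.06), E2F8 at -1.91 and E2F2 at -1.74. None of 8 cyclins and CDKs was called. Cyclin D1 (CCND1), named by the study, was at 622, 646 and 621 CPM in Kushen and 779, 834 and 777 CPM in Baituling. The groups did not overlap, but the log2 fold change was -0.34 ± 0.04 (adjusted p 2.94e-07 in edgeR). CDK2 (-0.81) and CDK4 (-0.52) were also under the fold threshold. The CDK inhibitors CDKN2C (-1.37 ± 0.06) and CDKN1C (-1.26 ± 0.10) were called lower as well. Of 35 genes of the BCL2 family, caspases and death receptors, 3 were called lower and none higher (median -0.27), a share near the 6.73% of all genes tested that were called lower. They were the BH3-only gene BBC3 (-1.09 ± 0.10), BIRC5, which also acts in mitosis, and BIK (named after its values were seen). The survival factor MCL1 was at 289 ± 6.60 CPM in Kushen and 519 ± 9.51 CPM in Baituling and remained under the threshold (-0.84), as did BAD (-0.93).

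**Figure D3:**
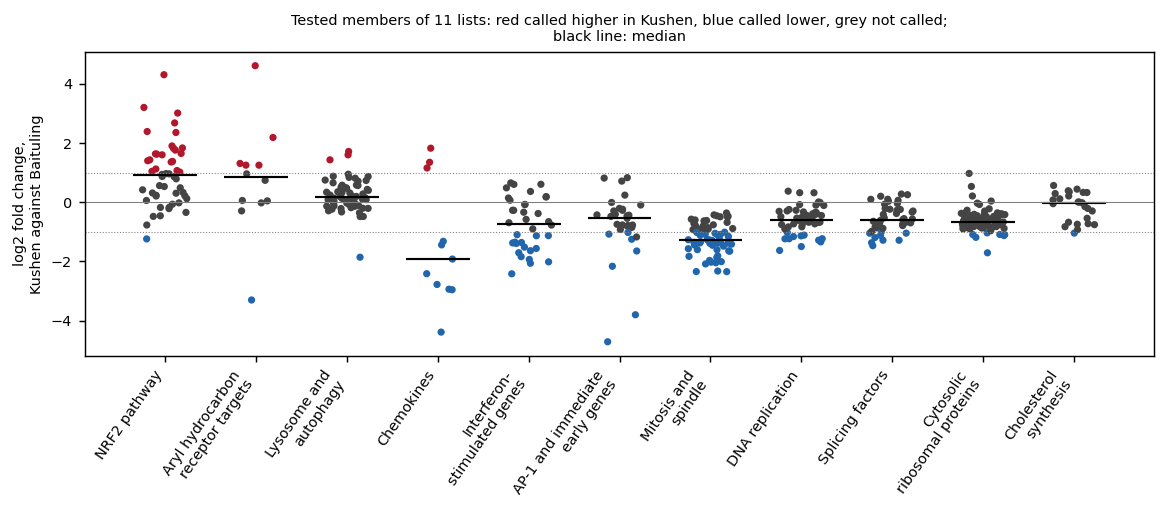
Log2 fold change of each tested member of 11 lists, Kushen against Baituling (red called higher, blue called lower, grey not called, black line the median, dotted lines at 1 and -1). All 66 mitosis genes lie below 0 (median -1.26), the NRF2 pathway is mostly above 0 (median 0.91), and the chemokines split into 8 called lower and 3 called higher.

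On the TMM scale most genes for the machinery of protein synthesis were lower in Kushen. Of 82 genes for cytosolic ribosomal proteins 76 were lower and 3 higher at an adjusted p under 0.05, with a median of -0.66 and an interquartile range of -0.82 to -0.46. The changes were small, and 7 were called lower and none higher. RPL10 stood apart at 541, 559 and 570.0 CPM in Kushen and 1916, 1760.5 and 1781 CPM in Baituling (-1.71 ± 0.04), followed by RPSA (-1.19 ± 0.05), which binds laminin as well as the ribosome, and RPL3 (-1.13 ± 0.04). These genes took 5.07% to 5.36% of all reads in Kushen and 7.15% to 7.72% in Baituling. Many ribosomal protein genes have processed copies elsewhere in the genome, and how reads that match several places were counted is not given in the sources used here. For mitochondrial ribosomal proteins 62 of 76 were lower and 4 higher at an adjusted p under 0.05 (median -0.38) and 2 were called lower, MRPL11 at -1.34 ± 0.06 and MRPL23, which lost its call without Baituling replicate 1 (-0.95), under upper quartile scaling (-0.95) and with 10 reads required in every library (-0.99). Of 39 ribosome biogenesis factors 4 were called lower (median -0.42), including the nucleolar methyltransferase fibrillarin FBL (-1.15 ± 0.05), RRS1 (-1.35) and UTP20 (-1.19). Translation factors (1 of 43 called lower, EIF6 at -1.25 ± 0.05, median -0.27) and aminoacyl-tRNA synthetases (none of 16 called, median -0.30) had smaller medians, and at an adjusted p under 0.05 the former had 27 lower and 6 higher and the latter 11 lower and 4 higher. The size of all these medians depended on scaling. Under library totals they were -0.45 for cytosolic and -0.17 for mitochondrial ribosomal proteins and -0.21 for biogenesis factors. For translation factors and synthetases they were -0.06 and -0.09. In the highest bin by level, 1544 of 2839 genes of any kind were lower at an adjusted p under 0.05.

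Splicing factors followed. Of 41 SR proteins, hnRNPs and related genes 9 were called lower and none higher (median -0.59), and 32 were lower at an adjusted p under 0.05. RBM3, a cold-inducible RNA-binding protein, was at 148, 134 and 131 CPM in Kushen and 399, 380.1 and 364 CPM in Baituling (-1.47 ± 0.05), the SR protein SRSF3 averaged 216 ± 6.77 CPM in Kushen and 558 ± 16.2 CPM in Baituling (-1.37 ± 0.04) and HNRNPA1 averaged 585 ± 19.7 CPM in Kushen and 1425 ± 10.0 CPM in Baituling (-1.29 ± 0.04). The list took 0.943% to 0.998% of all reads in Kushen and 1.32% to 1.35% in Baituling, with no overlap.

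Genes for the handling of foreign compounds included many called higher in Kushen. For the aryl hydrocarbon receptor the called genes were targets. AHR itself was at 141 ± 4.46 CPM in Kushen and 152 ± 1.70 CPM in Baituling (-0.11 ± 0.04) and its partner ARNT at 44.4 ± 0.557 CPM in Kushen and 40.1 ± 1.08 CPM in Baituling (0.15 ± 0.05), and none of the 5 receptor and partner genes was called. Of the 5 target enzymes tested 3 were called higher and none lower (median 1.31). Next to CYP1A1, CYP1B1 was at 349, 353 and 353 CPM in Kushen and 136, 141 and 148 CPM in Baituling (1.31 ± 0.04). NQO1, shared with NRF2, was higher at an adjusted p of 2.44e-13 in edgeR but stayed under the fold threshold (0.96 ± 0.04), and was called only under upper quartile scaling (1.03) and library totals (1.17). Of 7 other targets 2 were called higher, the feedback inhibitors TIPARP (1.25 ± 0.04) and AHRR (1.25 ± 0.21), and 1 was called lower, SERPINB2, named after its values were seen.

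The NRF2 list held the most rises. Of 50 members tested 22 were called higher and 1 lower (median 0.91), where 8.50% of all genes were called higher. Of the regulators few passed the fold threshold. NFE2L2, the gene of NRF2, was at 82.1 ± 1.83 CPM in Kushen and 78.8 ± 1.52 CPM in Baituling with an adjusted p of 0.236 in edgeR, CUL3 was at -0.02 and KEAP1 at -0.48 ± 0.05. Of 8 regulators SQSTM1, the autophagy receptor that sequesters KEAP1, was called, at 694, 749 and 773 CPM in Kushen and 284, 278 and 258 CPM in Baituling (1.43 ± 0.05). Among the small MAF partners MAFG (0.87) and MAFF (-0.77) had opposite signs, both below the threshold. Among genes of glutathione the 2 subunits of glutamate-cysteine ligase rose unequally. GCLM, the modifier, had 5779, 5636 and 5026 reads in Kushen and 902, 803 and 831 in Baituling (log2 fold change 2.36 ± 0.04), and GCLC, the catalytic subunit, at 66.8, 66.1 and 66.4 CPM in Kushen and 23.5, 25.3 and 26.6 CPM in Baituling (1.40 ± 0.05). The cystine carrier SLC7A11 averaged 145 ± 7.03 CPM in Kushen and 47.7 ± 2.23 CPM in Baituling (1.60 ± 0.05). In the thioredoxin system TXNRD1 averaged 1380.1 ± 47.7 CPM in Kushen and 444 ± 11.5 CPM in Baituling (1.64 ± 0.04) and sulfiredoxin SRXN1 averaged 67.3 ± 10.4 CPM in Kushen and 17.9 ± 1.46 CPM in Baituling (1.90 ± 0.09), while PRDX1 stayed below the threshold (0.86).

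Carbonyl-reducing and conjugating enzymes of the NRF2 list were called higher in 7 of 11 cases and lower in 1 (median 1.36). AKR1C3, an aldo-keto reductase that acts on steroids and prostaglandins, was at 113, 107 and 104 CPM in Kushen and 17.6, 16.8 and 15.9 CPM in Baituling (2.68 ± 0.06), and reads of the AKR1C genes may have been shared among them. All 6 NADPH-producing enzymes were higher at an adjusted p under 0.05, and ME1, the malic enzyme, was called (1.63 ± 0.05). Over the wider list of 15 pentose phosphate and NADPH enzymes the median was 0.00. Ferritin rose in both chains. FTL was among the most abundant transcripts at 5292, 5252 and 5312 CPM in Kushen and 1604, 1430.4 and 1455 CPM in Baituling (1.82 ± 0.05), and FTH1 averaged 800.4 ± 3.57 CPM in Kushen and 395 ± 8.05 CPM in Baituling (1.02 ± 0.04). Of the export pumps ABCC3 was called (1.76 ± 0.11), and ABCC1 (0.24) and ABCC4 (0.31) were not. Among other targets the taurine carrier SLC6A6 (1.65 ± 0.05), TRIM16 (1.84 ± 0.06) and its near-copy TRIM16L (2.39 ± 0.06) were called. The whole list took 1.52% to 1.54% of all reads in Kushen and 0.637% to 0.657% in Baituling.

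Metals and transport showed single strong members. Of 5 metallothioneins, small proteins that bind zinc and copper, MT1X was at 302, 267 and 266 CPM in Kushen and 67.3, 66.1 and 63.0 CPM in Baituling (2.09 ± 0.06) and was the one called. MT1F averaged 2.01 ± 0.239 CPM in Kushen and 2.69 ± 0.430 CPM in Baituling with overlapping libraries (adjusted p 0.0563 in edgeR). Of 20 iron and heme genes 3 were called higher and none lower (median 0.29), where 15.2% of all genes tested were called either way and 8.50% higher. The third beside the ferritins was the iron exporter SLC40A1 (1.15 ± 0.11). Of 8 efflux pumps 3 were called higher (median 0.73), and among them ABCG2 averaged 11.9 ± 0.929 CPM in Kushen and 3.09 ± 0.192 CPM in Baituling (1.95 ± 0.11). Of 10 uptake carriers 2 were called higher and SLCO4A1 lower, the last at 21.5, 23.5 and 25.9 CPM in Kushen and 258, 236 and 237 CPM in Baituling.

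**Figure D4:**
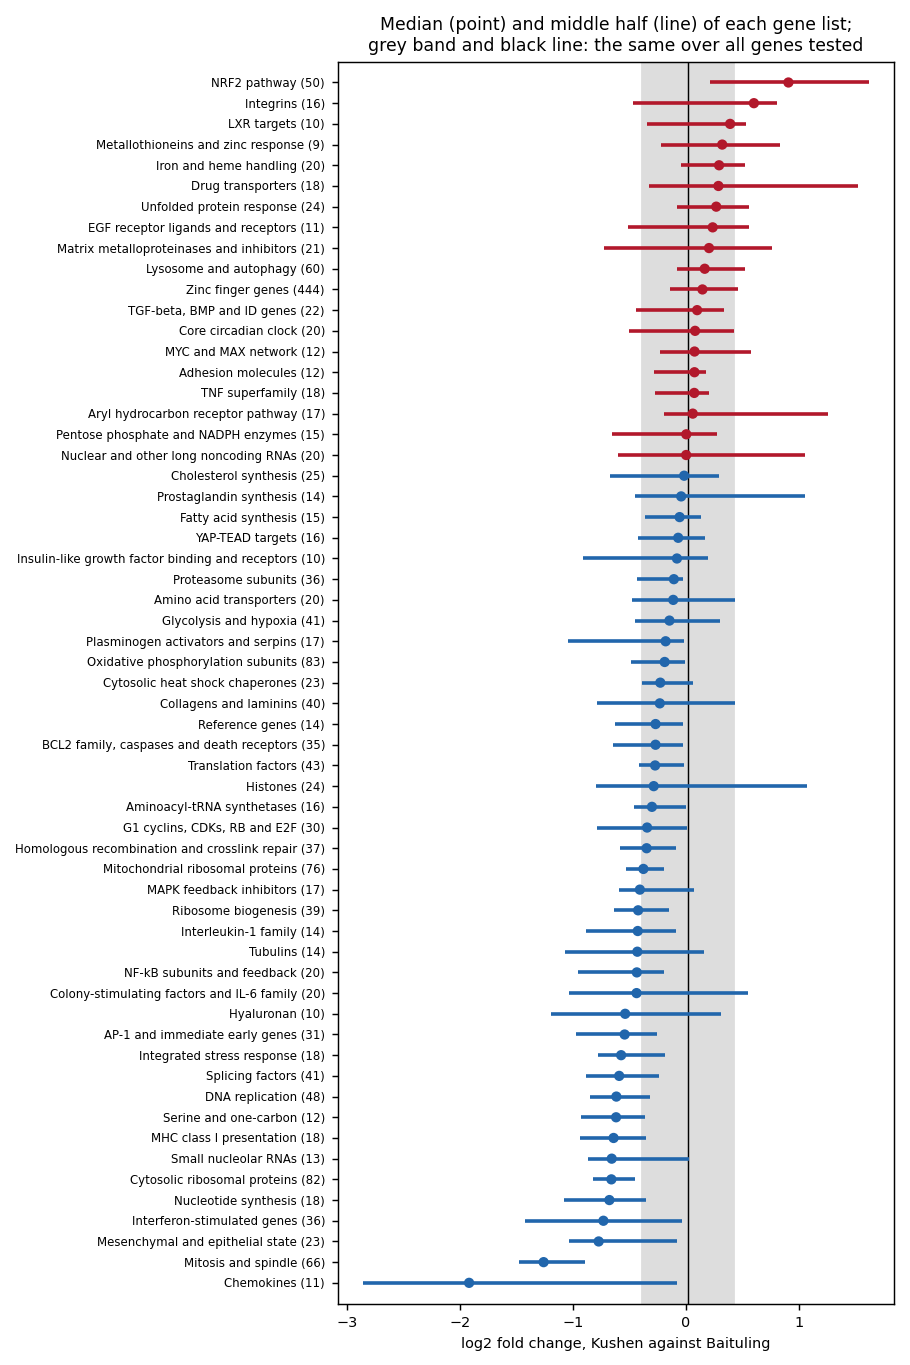
Median log2 fold change (points) and interquartile range (lines) of lists with at least 8 members tested, with the number tested in parentheses; red is above 0 and blue below, and the grey band and black line are the interquartile range and median of all genes tested. The NRF2 pathway is at 0.91, mitosis and spindle at -1.26 and the chemokines at -1.92.

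Most chemokines were lower in Kushen. Of 18 chemokine genes in the count data 11 passed the filter on low counts. All 11 chemokines tested were called, 8 lower and 3 higher (median -1.92), where 6.73% and 8.50% of all genes were. A rare gene can pass the filter through the group in which it is high, and 37.7% of the lowest bin by level was called. CXCL8 (interleukin 8), which draws neutrophils, was at 26.8, 23.0 and 25.4 CPM in Kushen and 123, 137 and 142 CPM in Baituling (log2 fold change -2.42 ± 0.08, adjusted p 1.28e-15 in edgeR). CXCL1 was at 4.30, 3.49 and 5.59 CPM in Kushen and 33.6, 33.4 and 35.3 CPM in Baituling (-2.94 ± 0.11) and CXCL2 averaged 5.50 ± 1.98 CPM in Kushen and 42.5 ± 3.83 CPM in Baituling (-2.96 ± 0.14). These 3 genes are neighbours on chromosome 4, and in each the 2 groups were far apart. CX3CL1 (-1.44 ± 0.12) and CCL28 (-1.32 ± 0.13) were called lower too. The 3 called higher were CXCL14, CXCL16 and CCL26, and the largest fall was that of CCL2 (all 4 named after their values were seen).

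Of 10 ligands of the colony-stimulating factor and IL-6 families 4 were called lower and 2 higher (median -0.63). IL6 was at 18.8, 16.5 and 19.3 CPM in Kushen and 111, 120.5 and 127 CPM in Baituling (-2.72 ± 0.07). CSF2, the granulocyte-macrophage factor, had 91, 84 and 75 reads in Kushen and 596, 522 and 543 in Baituling (log2 fold change -3.07 ± 0.11). IL24, by contrast, averaged 9.98 ± 0.972 CPM in Kushen and 3.43 ± 0.461 CPM in Baituling and was called higher (1.54 ± 0.13). The feedback inhibitors SOCS1 (-2.84 ± 0.12) and SOCS2 (-1.10 ± 0.06) were called lower. In the IL-1 family IL1B averaged 12.3 ± 0.757 CPM in Kushen and 38.3 ± 1.46 CPM in Baituling (-1.64 ± 0.07) and IL18 averaged 33.2 ± 2.34 CPM in Kushen and 15.5 ± 0.0274 CPM in Baituling (1.10 ± 0.07), with opposite directions, and SIGIRR, a receptor that dampens IL-1 signals, was called lower (-2.16 ± 0.11). IL1A averaged 4.77 ± 0.603 CPM in Kushen and 9.65 ± 1.36 CPM in Baituling and lay at the threshold (-1.01 ± 0.12). Its value was -0.90 without Kushen replicate 3 or Baituling replicate 3, -0.94 under upper quartile scaling, -0.97 with 10 reads required in every library and -0.99 with only the 2 groups or the rows as deposited, so its call is uncertain.

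The NF-kB list was lower in its feedback arm. None of 20 members was called higher and 5 were called lower (median -0.44), 17 being lower at an adjusted p under 0.05. Among the inhibitors ZC3H12A, an RNase that degrades cytokine mRNA, was at 16.8, 16.4 and 17.3 CPM in Kushen and 64.1, 59.8 and 65.8 CPM in Baituling (-1.91 ± 0.06), NFKBIZ averaged 13.8 ± 1.76 CPM in Kushen and 50.7 ± 5.70 CPM in Baituling (-1.88 ± 0.09) and TNFAIP3 averaged 8.54 ± 0.449 CPM in Kushen and 18.3 ± 1.65 CPM in Baituling (-1.09 ± 0.09). Of the subunits RELA (-0.21 ± 0.04), NFKB2 (-0.20 ± 0.05) and RELB (-0.17 ± 0.07) were lower by less than the fold threshold. The libraries of the 2 groups overlapped in RELB and in REL, the latter with an adjusted p of 0.391 in edgeR. NFKB1 was called at -1.04 ± 0.06, but not under upper quartile scaling (-0.97) or without Kushen replicate 3 (-0.99). The adhesion molecule VCAM1, a known target, was at 7.20, 8.33 and 7.32 CPM in Kushen and 62.5, 65.5 and 64.5 CPM in Baituling (-3.07 ± 0.07), the only one called of 12 adhesion genes. Of 18 genes of the TNF superfamily 2 were called higher and 3 lower (median 0.07), and 4 of 6 ligands lay above 0. The ligand LTB, at under 1 CPM, was called lower (named after its values were seen). The ligand TNFSF4 was called higher (1.05 ± 0.18), but not without Kushen replicate 3 (0.97) or Baituling replicate 2 (0.92). The ligand TNFSF10 (TRAIL) was called lower (-1.30 ± 0.05), as was its decoy TNFRSF11B (-1.19 ± 0.13), and the receptor TNFRSF1B was called higher (1.22 ± 0.07). The TRAIL receptors TNFRSF10A (-0.19) and TNFRSF10B (0.21) and the TNF receptor TNFRSF1A (-0.09) were under the threshold.

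Interferon-stimulated genes are given by role. Of 26 antiviral effectors 16 were called lower and none higher (median -1.24), whereas none of 10 sensors and transcription factors was called (median 0.16). IFIT2, which binds foreign RNA, was at 20.2, 19.5 and 18.8 CPM in Kushen and 73.8, 76.3 and 73.2 CPM in Baituling (-1.93 ± 0.06), OAS3 averaged 9.03 ± 0.757 CPM in Kushen and 37.7 ± 2.71 CPM in Baituling (-2.06 ± 0.08) and OASL averaged 4.24 ± 0.207 CPM in Kushen and 17.1 ± 0.708 CPM in Baituling (-2.02 ± 0.10). IRF1 (-0.65), TRIM21 (-0.69) and DHX58 (-0.90, but -1.04 without Kushen replicate 1) had adjusted p under 0.05 and stayed under the fold threshold. By the same criterion 4 were higher, also under the fold threshold, among them STAT2 (0.61), IRF7 (0.37) and RIGI (0.18), named after their values were seen. Genes of antigen presentation by MHC class I were lower in 18 of 18 cases by sign, 16 of them at an adjusted p under 0.05, with 4 called (median -0.64). They included the immunoproteasome subunits PSMB10 (-2.01 ± 0.12), PSMB9 (-1.25 ± 0.06) and PSMB8 (-1.15 ± 0.05), and HLA-F (-1.52 ± 0.10), whose reads may be shared with other HLA genes. Over all 36 proteasome subunits 3 were called lower, these same immunoproteasome subunits, and the median was -0.11.

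Early response genes were lower. Of 31 AP-1 and immediate early genes 7 were called lower and none higher (median -0.54), and all 7 members of the FOS and JUN families were lower at an adjusted p under 0.05 (median -0.81). FOS was at 13.3, 13.2 and 21.7 CPM in Kushen and 209, 231 and 229.5 CPM in Baituling. JUN averaged 286 ± 39.3 CPM in Kushen and 603 ± 20.6 CPM in Baituling (-1.08 ± 0.07) and lost its call without Kushen replicate 1 (-0.99). BATF3 (-1.25 ± 0.11), IER5L (-2.16 ± 0.12) and NR4A1 (-1.65 ± 0.17) were called lower, and ATF3 averaged 10.4 ± 0.621 CPM in Kushen and 12.8 ± 2.55 CPM in Baituling with overlapping libraries (-0.29 ± 0.11). The MAPK phosphatase DUSP1, itself an early gene, averaged 64.8 ± 4.36 CPM in Kushen and 147 ± 7.76 CPM in Baituling (-1.19 ± 0.06), and 2 of 17 MAPK feedback inhibitors were called lower (median -0.41). SPRY2 (-0.67) and SPRY4 (-0.60) were below the threshold.

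Growth factor systems changed in both directions. Among EGF receptor ligands NRG1 was called lower (-1.18 ± 0.06) and EGF higher (1.24 ± 0.18), the latter at 3.93 ± 0.416 CPM in Kushen and 1.66 ± 0.333 CPM in Baituling. The receptor EGFR averaged 424 ± 4.96 CPM in Kushen and 247 ± 16.6 CPM in Baituling (0.78 ± 0.05) and ERBB2 averaged 64.1 ± 2.45 CPM in Kushen and 104 ± 2.16 CPM in Baituling (-0.70 ± 0.05), 2 changes of opposite sign under the threshold. All 5 tested binding proteins for insulin-like growth factors were lower at an adjusted p under 0.05. Next to IGFBP1, IGFBP6 averaged 18.1 ± 0.482 CPM in Kushen and 66.4 ± 3.33 CPM in Baituling (-1.88 ± 0.06), and the abundant IGFBP4 lay at the threshold without passing it, averaging 2055 ± 112 CPM in Kushen and 4105 ± 218 CPM in Baituling. It passed without Kushen replicate 2 (-1.01), Kushen replicate 3 (-1.02), Baituling replicate 2 (-1.01) or Baituling replicate 3 (-1.03), and just passed with DESeq2 or its size factors, without a filter and with the replicate block. In the TGF-beta family the activin antagonist follistatin (FST) was at 22.5, 20.6 and 20.5 CPM in Kushen and 96.6, 100.3 and 97.2 CPM in Baituling (-2.21 ± 0.06) and the activin subunit INHBA averaged 10.2 ± 0.880 CPM in Kushen and 27.2 ± 1.25 CPM in Baituling (-1.40 ± 0.08), both lower, while BMP6 (1.62 ± 0.20) and its target ID3 (1.49 ± 0.11) were higher. Of 16 YAP-TEAD targets 3 were called lower (median -0.07), TGFB2 (-1.27 ± 0.06), FJX1 (-1.40 ± 0.08) and NUAK2 (-1.55 ± 0.13). In the MYC and MAX network MLXIPL, a carbohydrate-responsive factor, was called higher (1.68 ± 0.14).

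The stress pathways differed from each other. Of 24 genes of the unfolded protein response 3 were called higher and none lower (median 0.27). This share was 12.5%, where 15.2% of all genes tested were called either way and 8.50% higher. Among the 3 were the oxidoreductase ERO1B (1.52 ± 0.09) and the sensor kinase EIF2AK3. EIF2AK3 averaged 31.2 ± 1.55 CPM in Kushen and 14.2 ± 0.637 CPM in Baituling (1.14 ± 0.07). Of 18 genes of the integrated stress response 3 were called in each direction and 14 were lower at an adjusted p under 0.05 (median -0.57). DDIT3 averaged 20.8 ± 1.37 CPM in Kushen and 8.97 ± 1.33 CPM in Baituling and was higher (1.21 ± 0.09), as was SLC7A11, and ATF5 averaged 8.69 ± 0.616 CPM in Kushen and 24.7 ± 2.12 CPM in Baituling and was lower (-1.51 ± 0.09). Among 23 cytosolic chaperones the small heat shock protein HSPB1 was at 127, 148 and 155 CPM in Kushen and 569, 484 and 491 CPM in Baituling (-1.85 ± 0.07), and the co-chaperone DNAJB4 was called higher (1.23 ± 0.08). Of 60 lysosome and autophagy genes 32 were higher and 13 lower at an adjusted p under 0.05, with 3 called higher and 1 lower (median 0.17). The share called was 6.67%, below the 15.2% of all genes tested. The proton pump subunit ATP6V0D2 (1.60 ± 0.14) was called higher, the protease CTSS was called lower (-1.86 ± 0.09), and WIPI1, which acts in autophagosome formation, was under the threshold (0.95 ± 0.05, but 1.02 under upper quartile scaling).

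Most metabolic lists were centred near 0. Of 12 serine and one-carbon genes 2 were called lower (median -0.62), PHGDH, the first enzyme of serine synthesis (-1.44 ± 0.07), and SHMT2 (-1.16 ± 0.05). The glutamine carrier SLC1A5 averaged 202 ± 14.8 CPM in Kushen and 476 ± 6.95 CPM in Baituling and was called lower (-1.24 ± 0.05). None of 22 glycolysis genes was called, although 15 were lower at an adjusted p under 0.05 (median -0.38), LDHA averaging 1339 ± 34.4 CPM in Kushen and 2528 ± 79.2 CPM in Baituling (-0.92 ± 0.04) and the glucose carrier SLC2A3 having the opposite sign (0.87). Of 19 hypoxia genes ANGPTL4 was called, at 142, 163 and 172 CPM in Kushen and 19.9, 18.1 and 14.6 CPM in Baituling. Cholesterol synthesis genes were lower in 11 and higher in 9 of 25 cases at an adjusted p under 0.05 (median -0.02). No fatty acid synthesis gene was called of 15 (median -0.06), with SREBF1 at -0.83 ± 0.07. Oxidative phosphorylation subunits were lower in 48 and higher in 10 of 83 cases at an adjusted p under 0.05 (median -0.19). The calls ran the other way, with 4 called higher and ATP5F1D called lower (-1.08 ± 0.07). Those higher were NDUFV2 (1.02 ± 0.17), which lost its call without Kushen replicate 2 (0.97) or Baituling replicate 1 (0.92), and, named after their values were seen, NDUFA13 (1.01), NDUFA7 (1.87) and COX6B2 (2.10), all of them at low levels. In prostaglandin metabolism PTGS2 (cyclooxygenase 2) was called lower (-1.58 ± 0.14) and the prostaglandin reductase PTGR1 higher (1.14 ± 0.05). The medians of the cholesterol, fatty acid, glycolysis and hypoxia, oxidative phosphorylation, proteasome, prostaglandin, TNF, TGF-beta, YAP-TEAD, pentose phosphate, insulin-like growth factor, amino acid transporter, plasminogen, adhesion and long noncoding RNA lists changed sign under at least 1 other setting, so no direction is given for them as a whole.

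Matrix, adhesion and cytoskeleton genes moved by member. Of 40 collagens, laminins and matrix glycoproteins 4 were called higher and 8 lower (median -0.23). Tenascin C (TNC) was at 28.2, 26.8 and 28.5 CPM in Kushen and 136, 141 and 139.6 CPM in Baituling (-2.32 ± 0.05) and fibronectin (FN1) averaged 589 ± 20.6 CPM in Kushen and 1383 ± 96.4 CPM in Baituling (-1.23 ± 0.05). COL6A3 was called lower (-1.30 ± 0.05) and the anchoring collagen COL7A1 higher (1.16 ± 0.13). Of 16 integrins 3 were called higher and none lower (median 0.60), including ITGA7 (2.16 ± 0.17) and ITGB3 (1.35 ± 0.12), and the laminin receptor ITGA6 had the opposite sign (-0.91). The metalloproteinase inhibitor TIMP3 averaged 308 ± 12.4 CPM in Kushen and 798 ± 11.5 CPM in Baituling and was lower (-1.38 ± 0.04), TIMP4 was higher (2.18 ± 0.17), and the protease ADAMTS1 was lower (-1.39 ± 0.06). Of 10 hyaluronan genes 3 were called lower and none higher. Beside HAS2, CEMIP, which degrades hyaluronan, averaged 31.5 ± 1.35 CPM in Kushen and 154 ± 6.08 CPM in Baituling (-2.29 ± 0.05), and HMMR, also a spindle protein, was called lower (-1.30 ± 0.10). Thrombomodulin (THBD) averaged 48.4 ± 3.51 CPM in Kushen and 194 ± 5.79 CPM in Baituling and the urokinase receptor PLAUR averaged 101 ± 6.97 CPM in Kushen and 241 ± 4.14 CPM in Baituling (-1.26 ± 0.05), both lower.

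Neither the mesenchymal nor the epithelial markers rose as a set in Kushen, with 4 of 10 and 3 of 13 called lower. Vimentin (VIM) was at 599, 563 and 591 CPM in Kushen and 2116, 2014 and 2079 CPM in Baituling (-1.83 ± 0.04), the keratin KRT8 averaged 609 ± 11.2 CPM in Kushen and 1279 ± 57.5 CPM in Baituling (-1.07 ± 0.04) and the repressor SNAI1 averaged 6.33 ± 0.871 CPM in Kushen and 14.7 ± 3.37 CPM in Baituling (-1.22 ± 0.15). Of 14 tubulins 4 were called lower and 1 higher, with the near-identical alpha tubulins TUBA1A (-1.37 ± 0.04), TUBA1B (-1.64 ± 0.05) and TUBA1C (-1.69 ± 0.05) all lower. Of 14 genes in common use as references 1 was called, lower (median -0.27), against 15.2% of all genes tested called either way and 6.73% lower. It was actin (ACTB), at 2863, 2867 and 3004 CPM in Kushen and 7445, 7008 and 7062 CPM in Baituling (-1.30 ± 0.04), PPIA was lower by less (-0.93 ± 0.04), and the transferrin receptor TFRC had the opposite sign (0.89 ± 0.04).

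Noncoding RNA and histone genes held some of the widest differences. Beside NEAT1, MALAT1, which is retained in nuclear speckles, was at 688, 344 and 505 CPM in Kushen and 74.6, 67.9 and 83.1 CPM in Baituling (2.77 ± 0.22). Both genes together took 0.105% to 0.209% of all reads in Kushen and 0.0115% to 0.0142% in Baituling, and the 3346 other lncRNA genes took 0.486% to 0.528% and 0.448% to 0.457%. Of 24 histone genes tested 7 were called higher and 4 lower (median -0.29). At an adjusted p under 0.05 they were higher in 9 and lower in 11 cases, and log2 fold changes ran from -3.83 to 2.61. H1-2 was at 115, 127 and 121 CPM in Kushen and 20.6, 19.0 and 19.5 CPM in Baituling (2.61 ± 0.06), H2BC5 averaged 39.8 ± 0.898 CPM in Kushen and 6.86 ± 0.947 CPM in Baituling (2.54 ± 0.08) and H4C8 averaged 5.67 ± 0.633 CPM in Kushen and 1.65 ± 0.439 CPM in Baituling (1.79 ± 0.16). Replication-dependent histone mRNA carries no poly(A) tail and the genes are near-identical, so their counts are uncertain. Of 444 zinc finger genes 174 were higher and 84 lower at an adjusted p under 0.05, with 16 called higher and 9 lower (median 0.15). The share called was 5.63%, below the 15.2% of all genes tested. ZNF114 (1.68 ± 0.13), ZNF618 (-1.82 ± 0.09) and ZNF219 (-1.69 ± 0.10) moved most among those of at least 2 CPM. Of 20 circadian clock genes 1 was called higher, RORB (1.11 ± 0.20), and 2 lower, PER2 (-1.53 ± 0.21) and CIART (named after its values were seen), a share near the 15.2% of all genes tested. Of 10 LXR targets 1 was called higher (ABCG1, named after its values were seen) and none lower (median 0.39). This share was 10%, where 15.2% of all genes tested were called either way and 8.50% higher. Of 13 small nucleolar RNAs 2 were called lower, SNORD3B-2 and SNORD3A (the latter named after its values were seen), and none higher (median -0.66). The share called was 15.4%, where 15.2% of all genes tested were called either way and 6.73% lower.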

How the data were processed

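RNA was sequenced as unstranded paired-end libraries from total RNA (NEBNext Ultra kit). The authors trimmed reads with Trim Galore 0.3.7, aligned them to hg19 with STAR 2.5.3a and deposited raw counts per gene, without normalization. The counting program, its annotation and its handling of multiply matching reads are not given in the sources used here. Of 24566 rows 222 repeated an Ensembl identifier with identical counts and were dropped, which left 24344 genes. GENCODE v44 lifted to GRCh37 named 24224, and RefSeq (GRCh38.p14, names and promoters only) named 99 more.

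Genes were filtered over all 9 libraries with filterByExpr of edgeR 4.0.16 in R 4.3.3 (minimum count 10, minimum total 15), which kept 14195. With only the Kushen and Baituling libraries it kept 13746. Libraries were scaled by TMM, with factors of 1.024 to 1.047 in Kushen and 0.877 to 0.900 in Baituling. A quasi-likelihood fit over all 9 libraries with group as the only term gave the contrast Kushen minus Baituling, with two-sided p-values adjusted by Benjamini-Hochberg over all genes tested. The common biological coefficient of variation was 4.53%. The fit was tested on simulated data. At these depths counting error is small for abundant genes and large near the filter. With 3 libraries a group, 0.1 is the smallest p an exact permutation test can give.

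Gene lists (61, besides 5 of markers) were written by hand and are described by counts and medians, without set tests. The members, lists and rules were chosen with earlier results of these data known, so no list is independent evidence. The lists overlap in 63 genes. Named genes were the 12 largest rises and falls of called genes whose groups did not overlap and whose average log2 CPM reached 1, up to 3 members with the largest change for each list and role at that level, all receptors, regulators and subunits, and CYP1A1, CCND1, IL1B and IL1A. Some genes and lists are not reported here. Replicates of a group differed by more than sampling noise (chi-square per gene 1.70 to 6.85), so none was counted as a duplicate. Of the genes tested 8707 overlap a gene on the opposite strand, whose reads cannot be told apart without strand. Promoters were matched by Entrez identifier for 11377 genes tested. DESeq2 1.42.0, other scalings, filters, thresholds, a replicate block and the removal of each library were tried as alternatives.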

Additional observations from a re-analysis of the deposited data

How the results depend on the processing

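The number of called genes (2162, with 1207 higher and 955 lower in Kushen) ranged from 2100 to 2264 when each library was left out in turn, with 1149 to 1273 higher and 934 to 1011 lower. Library totals moved the directions to 1813 higher and 618 lower, and 10 counts required in every Kushen and Baituling library gave 1425 (669 higher), a setting that tests fewer rare genes. Without the fold threshold 10168 genes passed (5047 higher, 5121 lower), and a test against a log2 fold change of 1 (glmTreat) left 1029 (477 higher, 552 lower). Upper quartile scaling gave 2211, the DESeq2 Wald test 2130, DESeq2 size factors 2164, no filter 2486, the 2 groups alone 1988 and the rows as deposited 2180, all within 1.5 times. Every gene called both here and under a scaling, filter, block, left-out library or DESeq2 had the same sign in both. For the 306 named genes 4583 alternative values were computed, of which 4467 kept the call and direction, 78 lost a call, 38 gained one and none changed sign as a called value. The replicate numbers did not pair the libraries (correlation of deviations -0.0507, -0.00952 and 2.57e-05 for equal numbers), and with the replicate block 2158 genes were called (1203 higher, 955 lower). IGFBP4, just under the fold threshold, was the one named gene whose call it changed.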
